A study of Rattus norvegicus with 6 samples.

Results

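The chromatin described here consists of 1383 de novo peaks, regions that were called as accessible after both stimuli in both genotypes and in neither unstimulated library. They make up 0.627% of the 220487 merged peaks of the nuclear chromosomes. Accessibility was measured by ATAC-seq, in which the Tn5 transposase cuts open chromatin and read pile-ups mark accessible regions, in INS-1 cells, a rat insulinoma line of pancreatic beta cell origin. Wild-type cells (WT) and cells with a serine-to-alanine substitution in the Mediator subunit Med14 (Med14 S983A) were left unstimulated (CON) or were given exendin-4 (Ex-4) at 10 nM or forskolin (FSK) at 10 µM for 1 h, all after transfer to serum-free medium. The mutation was knocked in with Cas9 and a repair template, and the study worked with independently generated mutant lines. Which line gave the 3 mutant libraries, and whether lines were pooled, the sources used here do not say. A single library was sequenced for each of the 6 conditions, which leaves every difference below without a replicate check, and no p-value was computed. Differences between Med14 S983A and WT therefore cannot be told apart from differences between cell lines or between libraries.

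Ex-4 is an agonist of the GLP-1 receptor, which raises cyclic AMP through a stimulatory G protein. FSK activates adenylyl cyclase directly, without a receptor. Cyclic AMP activates protein kinase A, which phosphorylates transcription factors such as CREB and also Med14 at the serine replaced here, a scaffold subunit of the Mediator complex that links enhancers to RNA polymerase II. A peak called only after stimulation can mark DNA that became easier for the transposase to reach, as happens when factors bind an enhancer or when a gene is transcribed strongly.

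Membership was read from the peak lists that the authors attached to each merged peak, so presence after stimulation and absence in CON are the definition of these regions and not findings. Values are FPKM, reads scaled to the length of the merged peak and to the size of the library, counted inside the peaks that the library itself had. A value of 0 therefore marks a peak missing from that library's list and not a measured absence of accessibility. All 1383 peaks were listed at 0 in WT CON and 1382 in Med14 S983A CON. The exception, chr12:16961385-16961725, carried 0.066 FPKM in Med14 S983A CON and is named for that value. No fold over CON was formed. For scale, a reference was taken from peaks of 221 to 408.5 bp, the quartiles of de novo peak length. Of such peaks called in WT CON, 95% lay above 1.16 FPKM and their median was 3.53 FPKM. The values in Med14 S983A CON were 1.17 and 3.41 FPKM. The counts that follow use de novo peaks of every length. Of the de novo peaks, 189 (13.7%) exceeded the WT CON median in WT Ex-4 and 886 (64.1%) did so in WT FSK. Against the Med14 S983A CON median, 258 (18.7%) of the Med14 S983A Ex-4 values and 730 (52.8%) of the Med14 S983A FSK values were higher. Above the 1.16 FPKM of WT CON lay 1070 (77.4%) of the WT Ex-4 values and 1345 (97.3%) of the WT FSK values. Above the 1.17 FPKM of Med14 S983A CON lay 1171 (84.7%) of the values with Ex-4 and 1330 (96.2%) with FSK in that genotype.

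The libraries of the WT cells held 151.5 M reads (M for mega) inside peaks in CON, 158.8 M with Ex-4 and 251.1 M with FSK. Those of the Med14 S983A cells held 134.3 M in CON, 147.1 M with Ex-4 and 163 M with FSK. WT FSK was the deepest library and had the most peaks. The part of depth in the results below was not tested.

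Peaks that differed from the set by a single call were more numerous than the set. Among peaks called in neither CON and in exactly 3 of the 4 stimulated libraries, 3465 lacked only WT Ex-4 and 1159 lacked only Med14 S983A Ex-4, whereas 305 lacked only Med14 S983A FSK and 113 lacked only WT FSK. The peaks that lacked only WT Ex-4 had median values of 3.60 FPKM in WT FSK, 2.00 FPKM in Med14 S983A Ex-4 and 3.94 FPKM in Med14 S983A FSK. Peaks called in all 4 stimulated libraries and in a single CON library numbered 3089 for WT CON and 2061 for Med14 S983A CON. A further 15480 peaks were called in the FSK libraries of both genotypes alone.

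The de novo peaks were weak after Ex-4 and stronger after FSK. In WT Ex-4 they ranged from 0.237 to 18.1 FPKM with a median of 1.69 and quartiles of 1.21 and 2.52 FPKM. In Med14 S983A Ex-4 they ranged from 0.292 to 20.1 FPKM with a median of 2.02 and quartiles of 1.43 and 2.94 FPKM. Both Ex-4 libraries thus held most of the set below 3 FPKM.

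In WT FSK the range was 0.306 to 55.4 FPKM, the median 4.68 FPKM and the quartiles 2.75 and 8.07 FPKM. In Med14 S983A FSK the range was 0.455 to 42.2 FPKM, the median 3.56 FPKM and the quartiles 2.32 and 6.06 FPKM. The median peak held 77 reads with Ex-4 and 360 reads with FSK in WT cells, and 84 with Ex-4 and 167 with FSK in Med14 S983A. Values of 10 FPKM or more were reached by 27 peaks (1.95%) with Ex-4 and 257 peaks (18.6%) with FSK in WT cells, and by 31 (2.24%) with Ex-4 and 161 (11.6%) with FSK in Med14 S983A.

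**Figure D1:**
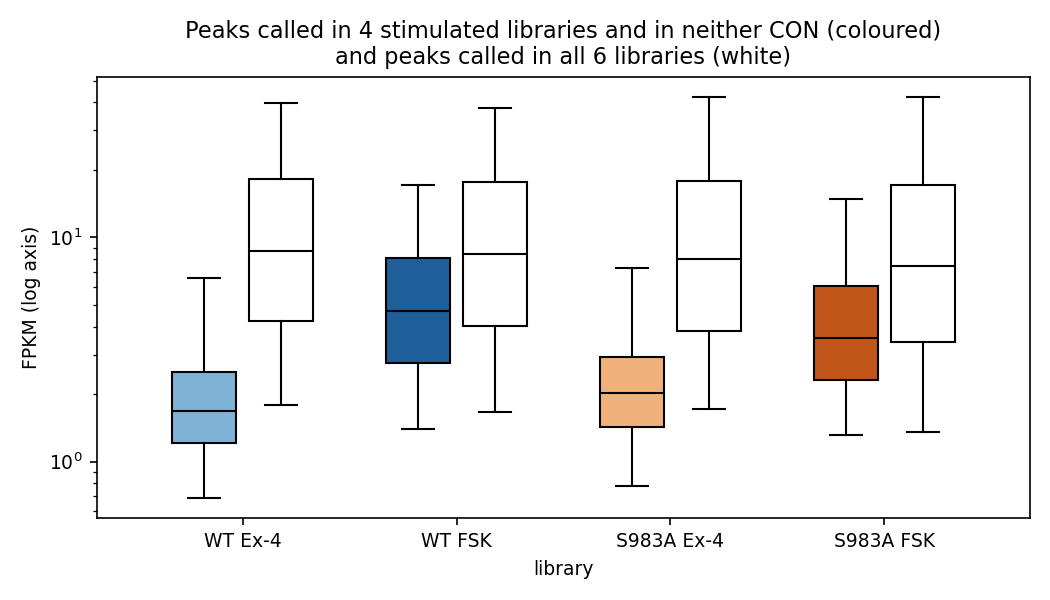
FPKM (log axis) in each stimulated library of the 1383 de novo peaks (coloured boxes) and of the 86576 peaks called in all 6 libraries (white boxes). Boxes span the quartiles with a line at the median, and whiskers reach the 5th and 95th percentiles over peaks. The coloured boxes lie wholly below the white ones with Ex-4 and overlap them with FSK. The coloured medians are 1.69 and 2.02 FPKM with Ex-4 against 4.68 and 3.56 FPKM with FSK.

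Peaks called in all 6 libraries, referred to below as always-called peaks, had medians between 7.42 and 8.70 FPKM in the same 4 libraries. At or above the always-called median of the same library were 40 de novo peaks (2.89%) with Ex-4 and 327 peaks (23.6%) with FSK in WT cells, and 58 (4.19%) with Ex-4 and 261 (18.9%) with FSK in Med14 S983A. With FSK, then, a sizeable minority of regions without a call in CON reached the level of a typical always-called peak.

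Among the 4 stimulated libraries, WT FSK was highest at 875 of the 1383 peaks (63.3%), Med14 S983A FSK at 357, Med14 S983A Ex-4 at 98 and WT Ex-4 at 53. WT Ex-4 was lowest at 803 peaks (58.1%) and Med14 S983A Ex-4 at 399. WT thus held both the most maxima and the most minima at these peaks. Maxima and minima were not counted over the other peaks, so whether this order is particular to the de novo peaks was not tested. Both FSK values exceeded both Ex-4 values at 965 de novo peaks (69.8%), against 13.4% of the 93109 peaks called in all 4 stimulated libraries, which serve as the background throughout. Both Ex-4 values exceeded both FSK values at 51 de novo peaks (3.69%), against 21.6% of the background. Background figures are descriptions, since the set was chosen on calls in these same libraries. Of the 93109 background peaks, 86576 were always-called peaks, which were typically stronger and longer than the de novo peaks.

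The first comparison asked how FSK and Ex-4 differed within a genotype. In WT the median log2 ratio of FSK to Ex-4, taken on FPKM plus 0.5, was 1.17 over the de novo peaks and -0.09 over the background. FSK was at least 2-fold higher at 785 de novo peaks (56.8%), against 5.69% of the background, and at least 2-fold lower at none, against 1.64%. In Med14 S983A the median log2 ratio was 0.66, against -0.08 in the background. FSK was at least 2-fold higher there at 464 de novo peaks (33.6%), against 2.82% of the background, and at least 2-fold lower at 2, against 2.3%. The excess of FSK was not confined to the de novo peaks. Among peaks called in all 4 stimulated libraries and in WT CON, FSK was at least 2-fold higher at 28.0% in WT and 16.1% in Med14 S983A, with medians of 0.51 and 0.30. Among those called in all 4 and in Med14 S983A CON the shares were 27.9% and 13.4%, with medians of 0.33 and 0.20. The added 0.5 understates the differences of the weakest peaks.

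The excess of FSK over Ex-4 was shared by the genotypes in direction and larger in WT. FSK exceeded Ex-4 in both genotypes at 1098 de novo peaks (79.4%), against 27.7% of the background. A 2-fold excess in both genotypes was present at 439 peaks (31.7%, background 2.33%), in WT alone at 346 (25.02%, background 3.37%) and in Med14 S983A alone at 25 (1.81%, background 0.491%). The 439 peaks had medians of 1.43 FPKM in WT Ex-4, 8.24 FPKM in WT FSK, 1.84 FPKM in Med14 S983A Ex-4 and 6.43 FPKM in Med14 S983A FSK. The ratio was larger in WT than in Med14 S983A at 1090 peaks (78.8%), against 52.2% of the background. The median of the WT log2 ratio minus the Med14 S983A log2 ratio was 0.45 over the de novo peaks and 0.01 over the background.

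**Figure D2:**
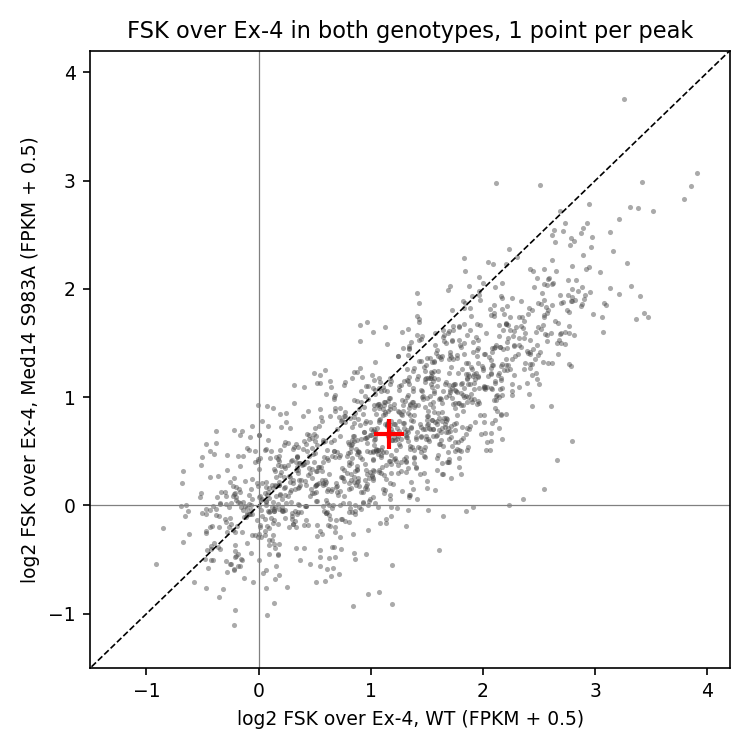
Log2 FSK over Ex-4 (FPKM plus 0.5) in WT (horizontal axis) and in Med14 S983A (vertical axis), 1 point per de novo peak. The dashed line marks equal ratios and the red cross the medians, 1.17 and 0.66. Of the 1383 points, 1090 lie below the dashed line, where the ratio was larger in WT.

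At 82 de novo peaks (5.93%, background 50%) FSK was at or below Ex-4 in both genotypes. These were short regions, with a median length of 178 bp, and their medians were 2.47 FPKM in WT Ex-4, 1.93 FPKM in WT FSK, 2.72 FPKM in Med14 S983A Ex-4 and 2.08 FPKM in Med14 S983A FSK.

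The second comparison asked how the mutant differed from WT under each stimulus. With FSK the median log2 ratio of Med14 S983A to WT over the de novo peaks was -0.26, against 0.02 in the background. Med14 S983A was at least 2-fold lower at 120 de novo peaks (8.68%), against 12.1% of the background, and at least 2-fold higher at 13, against 4.16%. With Ex-4 the median was 0.17, against 0.05 in the background. Med14 S983A was at least 2-fold higher at 71 de novo peaks (5.13%), against 5.35% of the background, and at least 2-fold lower at 10, against 9.96%. At these settings the shares past 2-fold did not exceed those of the background. The Ex-4 counts depended on the settings. Centring gave 114 higher (8.24%, background 6.80%) and 6 lower (0.434%, background 8.55%). A pseudocount of 0.1 gave 138 and 26, and a pseudocount of 1 gave 29 and 5. No background share is given at these pseudocounts, so these counts are not set against the background. The median counting error (SE) of a single peak's log2 genotype ratio was 0.23 with Ex-4 and 0.14 with FSK, and 498 peaks (36.0%) with Ex-4 and 264 (19.1%) with FSK lay within 1 such SE of 0. With the 4 libraries centred on their median level, the FSK median was -0.084. The split was 29 peaks at least 2-fold higher (2.10%, background 6.17%) and 75 lower (5.42%, background 9.49%). With quantile normalization the FSK median was -0.067. The split was 37 higher (2.68%, background 6.13%) and 66 lower (4.77%, background 9.34%). Centring moved the FSK median over the whole background by 0.17 as well. Among peaks called in all 4 stimulated libraries and in WT CON, the genotype medians were -0.80 with FSK and -0.53 with Ex-4. Among those called in all 4 and in Med14 S983A CON they were 0.33 and 0.57. In both sets and in the background, as in the de novo peaks, the FSK median was the lower one. Each of the 2 sets was chosen by a call in the CON library of a single genotype, so the sign of its medians is favoured by the choice.

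The pairing of a lower value with FSK and a higher value with Ex-4 in the mutant was present at 541 de novo peaks (39.1%), against 9.13% of the background. The reverse was present at 78 (5.64%), against 6.17%. At 403 de novo peaks (29.1%, background 39.4%) Med14 S983A was lower with both stimuli, and at 360 (26.0%, background 45.3%) it was higher with both. The number lower with FSK and higher with Ex-4 was 476 (background 6.71%) with centred libraries and 437 (background 7.02%) with quantile normalization. The number higher with both was 526 (38.0%, background 55.2%) with centred libraries and 522 (37.7%, background 50.6%) with quantile normalization. A 2-fold difference with both stimuli was rare, at 6 peaks lower (0.434%, background 8.7%) and 3 higher (0.217%, background 3.25%). The genotype ratios under FSK and under Ex-4 also agreed less closely, with a Pearson correlation of 0.47 over the de novo peaks and 0.91 over the background. With Ex-4 the median de novo peak held 77 reads in WT and 84 in Med14 S983A, against 751 and 618 at always-called peaks. From the 5th to the 95th percentile, the Ex-4 genotype ratio spanned -0.64 to 1.00, against -1.48 to 1.03 in the background. The part of counting error and of range in the lower correlation was not tested. The comparisons of FSK with Ex-4 and of Med14 S983A with WT share all 4 libraries, so the smaller FSK ratio in the mutant and the opposite signs of the genotype medians are the same numbers arranged differently.

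A single peak, chr3:95435339-95435805, combined a 2-fold lower value with FSK and a 2-fold higher value with Ex-4 in the mutant. It had 0.689 FPKM in WT Ex-4, 7.02 FPKM in WT FSK, 1.98 FPKM in Med14 S983A Ex-4 and 2.82 FPKM in Med14 S983A FSK. No other peak of the 93109 did this (0.00107% of the background), and it was picked out after its values were seen.

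The de novo peaks had a median length of 299 bp, with quartiles of 221 and 408.5 bp and a range of 107 to 2458 bp. Always-called peaks had a median of 584 bp and peaks called in the FSK libraries alone 198 bp. Longer de novo peaks had a larger excess of FSK. Over the 461 shortest, of 107 to 245 bp, the median log2 ratio of FSK to Ex-4 was 0.43 in WT and 0.22 in Med14 S983A. Over the 461 of intermediate length the medians were 1.30 and 0.73. Over the 461 longest, of 365 to 2458 bp, they were 1.80 and 1.13. The genotype median with FSK went from -0.10 in the shortest to -0.37 in the longest.

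Length enters these values directly. A merged peak is as long as the union of the peaks joined in it, and a library whose own peak was narrower had its reads divided by the full length. Spearman's rho of FPKM with length over the 1383 peaks was -0.54 in WT Ex-4 and -0.45 in Med14 S983A Ex-4, and 0.18 in WT FSK and 0.06 in Med14 S983A FSK. In the background it was positive in all 4 libraries, from 0.39 to 0.44. The widths of each library's own peaks are not in the table used here, and their part in the FSK excess was not tested.

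The strongest de novo peak by mean FPKM over the 4 stimulated libraries, chr18:40589946-40590184, had 14.3 FPKM in WT Ex-4, 55.4 FPKM in WT FSK, 17.9 FPKM in Med14 S983A Ex-4 and 42.2 FPKM in Med14 S983A FSK. The next, chr3:72133967-72134397, had 6.68, 45.7, 5.49 and 38.9 FPKM in the same order of libraries. At both, the 2 FSK values stood far above the 2 Ex-4 values. The peak chr1:199863567-199863779 was the strongest after Ex-4, with 18.1 FPKM in WT and 20.1 FPKM in Med14 S983A, and its FSK values, 28.0 and 27.4 FPKM, were nearly alike.

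At chr16:84720290-84720544 Ex-4 also came close to FSK, with 17.2 and 19.4 FPKM after Ex-4 in WT and Med14 S983A and 23.3 and 27.7 FPKM after FSK. At chr12:37810946-37811347 the genotypes parted in opposite directions, with 6.67 FPKM in WT and 9.66 FPKM in Med14 S983A after Ex-4 and 42.2 and 29.7 FPKM after FSK. The remaining 5 of the 10 strongest peaks, on chromosomes 4, 3, 7, 12 and 10, ranged from 5.63 to 16.2 FPKM with Ex-4 and from 24.4 to 37.3 FPKM with FSK. At all 10 peaks the lower FSK value exceeded the higher Ex-4 value. Ranking by the mean of the 4 libraries favours peaks with high FSK values, so this order is partly set by the choice.

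**Figure D3:**
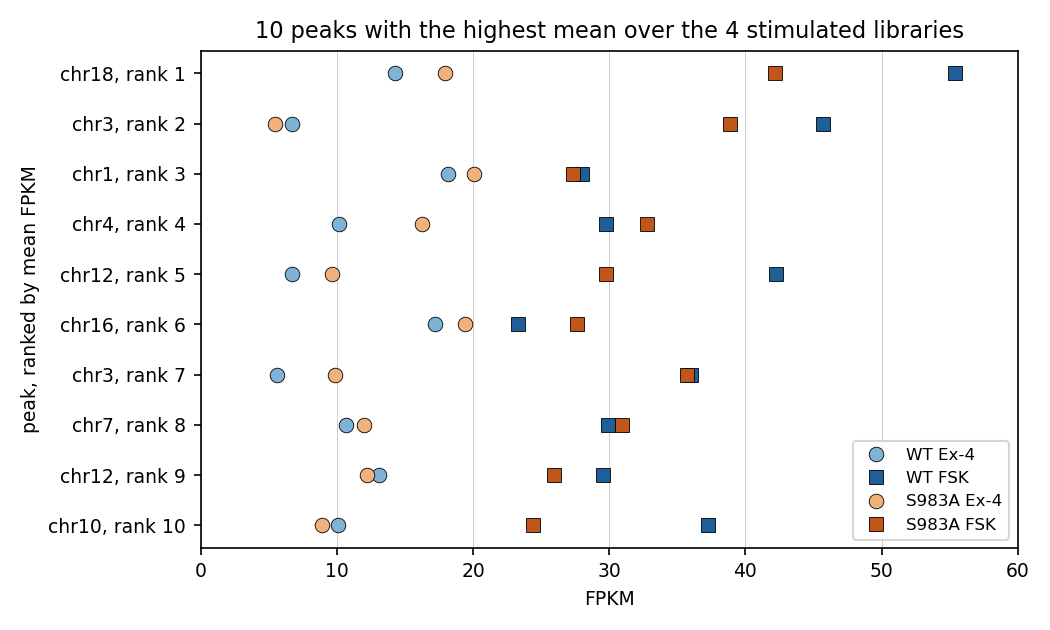
FPKM in the 4 stimulated libraries at the 10 de novo peaks with the highest mean, ranked from the top. Circles are Ex-4 and squares FSK, blue for WT and orange for Med14 S983A. All squares lie to the right of the circles of the same peak, with the highest value, 55.4 FPKM, in WT FSK at the chromosome 18 peak.

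Strong de novo peaks lay close to always-called peaks. Of the 10 strongest, 9 were within 1 kb of one, at 0.114 to 0.917 kb, and the other was 1.46 kb away. The always-called peak beside the chromosome 18 peak, 0.215 kb away, had 23.1 FPKM in WT CON, 24.8 FPKM in WT Ex-4 and 23.4 FPKM in WT FSK, and 29.9, 25.3 and 29.3 FPKM in the corresponding Med14 S983A libraries. Its values changed little between CON and the stimulated libraries. The always-called peak beside the chromosome 16 peak changed more, with 58.0 FPKM in WT CON, 96.0 FPKM in WT Ex-4 and 95.7 FPKM in WT FSK, and with 80.2, 109 and 115 FPKM in Med14 S983A. Of the 461 de novo peaks with the highest mean, 124 (26.9%) lay within 1 kb of an always-called peak, against 45 (9.76%) of the 461 with the lowest mean. Among always-called peaks themselves 19.1% had another within 1 kb. Over all de novo peaks the median distance to an always-called peak was 6.02 kb. No merged peaks overlapped.

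The largest excess of FSK over Ex-4 shared by the genotypes was at chr1:143022274-143022723, with 1.54 FPKM in WT Ex-4, 19.1 FPKM in WT FSK, 0.848 FPKM in Med14 S983A Ex-4 and 17.7 FPKM in Med14 S983A FSK. The log2 ratio was 3.26 in WT and 3.76 in Med14 S983A, where the Ex-4 value rested on 56 reads. At chr7:142920750-142922404, a region of 1654 bp, the values were 0.240, 10.6, 0.292 and 6.16 FPKM in the same order. Its Ex-4 values were near the lower end of the whole set and rested on 63 reads in WT and 71 in Med14 S983A, divided by the full 1654 bp.

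The longest de novo peak, chr6:25591968-25594426, had 1.36 FPKM in WT Ex-4, 19.3 FPKM in WT FSK, 2.47 FPKM in Med14 S983A Ex-4 and 23.0 FPKM in Med14 S983A FSK. The peak chr20:10667278-10668292 had 1.87, 32.4, 4.44 and 34.6 FPKM in that order. Both had somewhat higher values in the mutant than in WT after FSK and clearly higher ones after Ex-4, with exact Poisson intervals of 1.66 to 2.09 FPKM in WT and 4.11 to 4.80 FPKM in Med14 S983A at the chromosome 20 peak. These intervals cover counting error only. The chromosome 6 and chromosome 20 peaks were long, at 2458 and 1014 bp, and the part of length in their Ex-4 values was not tested. The remaining region chosen for a large FSK excess in both genotypes, chr17:66354533-66354946, had 0.838, 18.9, 1.22 and 12.7 FPKM.

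The de novo peak with the largest decrease in Med14 S983A under both stimuli was chr12:44139467-44139946, with 6.11 FPKM in WT Ex-4, 27.6 FPKM in WT FSK, 1.72 FPKM in Med14 S983A Ex-4 and 9.93 FPKM in Med14 S983A FSK. FSK remained above Ex-4 in both genotypes. The always-called peak 1.65 kb away was also lower in the mutant, and was so in CON too, with 23.9 FPKM in WT CON and 3.18 FPKM in Med14 S983A CON. The other 4 peaks chosen for a lower value in the mutant, on chromosomes 14, 1, 8 and 6, had log2 ratios of Med14 S983A to WT between -1.34 and -1.01 with Ex-4 and between -1.99 and -1.17 with FSK. The always-called peaks nearest to these 4 were lower in the mutant in CON as well. In that order they had 2.79, 16.5, 31.6 and 10.8 FPKM in WT CON and 1.04, 6.77, 24.4 and 2.25 FPKM in Med14 S983A CON. The one on chromosome 14 was 30.5 kb away.

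The largest increase in Med14 S983A was at chr4:157149690-157150017, with 1.37 FPKM in WT Ex-4, 5.86 FPKM in WT FSK, 4.93 FPKM in Med14 S983A Ex-4 and 13.7 FPKM in Med14 S983A FSK. The nearest always-called peak, 7.90 kb away, went the other way in CON, with 5.63 FPKM in WT and 2.75 FPKM in Med14 S983A. Of the other 4 peaks chosen for a higher value, chr5:166693892-166694060 and chr5:173268664-173268994 lay in stretches of chromosome 5 where long runs of consecutive always-called peaks differed between the genotypes in CON as well. The always-called peaks beside them had 10.7 and 9.11 FPKM in WT CON against 24.95 and 19.5 FPKM in Med14 S983A CON. Such stretches, on chromosomes 4, 5, 9 and 15, held 35 de novo peaks (2.53%), and outside them the genotype medians were -0.26 with FSK and 0.17 with Ex-4. The weakest de novo peak, chr5:5478637-5478950, had 0.905, 0.789, 0.630 and 0.627 FPKM in WT Ex-4, WT FSK, Med14 S983A Ex-4 and Med14 S983A FSK.

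Most de novo peaks stood alone. The median distance to the next de novo peak was 418 kb, and 1174 had no other within 50 kb. A minority of 81 (5.86%) fell into 14 stretches of at least 3 de novo peaks with gaps of up to 50 kb. These stretches were found after the values were seen.

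The largest was chr1:52569610-52825852, a stretch of 256 kb with 28 de novo peaks among 193 merged peaks. In WT, 33 of the 193 peaks had a value in CON, against 84 with Ex-4 and 174 with FSK. In Med14 S983A, 45 had a value in CON, against 110 with Ex-4 and 148 with FSK. The 28 de novo peaks had a median of 3.43 FPKM (0.814 to 8.63) in WT Ex-4 and 11.7 FPKM (2.62 to 21.1) in WT FSK. In Med14 S983A they had a median of 6.72 FPKM (1.74 to 10.7) with Ex-4 and 13.6 FPKM (5.17 to 20.1) with FSK. FSK exceeded Ex-4 at all 28 in both genotypes. The mutant exceeded WT at 26 of the 28 with Ex-4 and at 25 with FSK, the latter against the direction of the set as a whole.

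The 22 always-called peaks within the stretch have values in CON, which the choice of members did not use. Their median was 2.59 FPKM in WT CON, 6.58 FPKM in WT Ex-4 and 14.3 FPKM in WT FSK. In Med14 S983A it was 2.9995 FPKM in CON, 8.33 FPKM with Ex-4 and 15.2 FPKM with FSK. In WT, 10 of the 22 were at least 2-fold over CON with Ex-4 and 17 with FSK, against 0.448% and 5.94% of all always-called peaks. In Med14 S983A these numbers were 13 and 16, against 0.635% and 4.56%. With either stimulus, 20 or 21 of the 22 exceeded CON in each genotype, so the higher values were spread along the stretch.

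**Figure D4:**
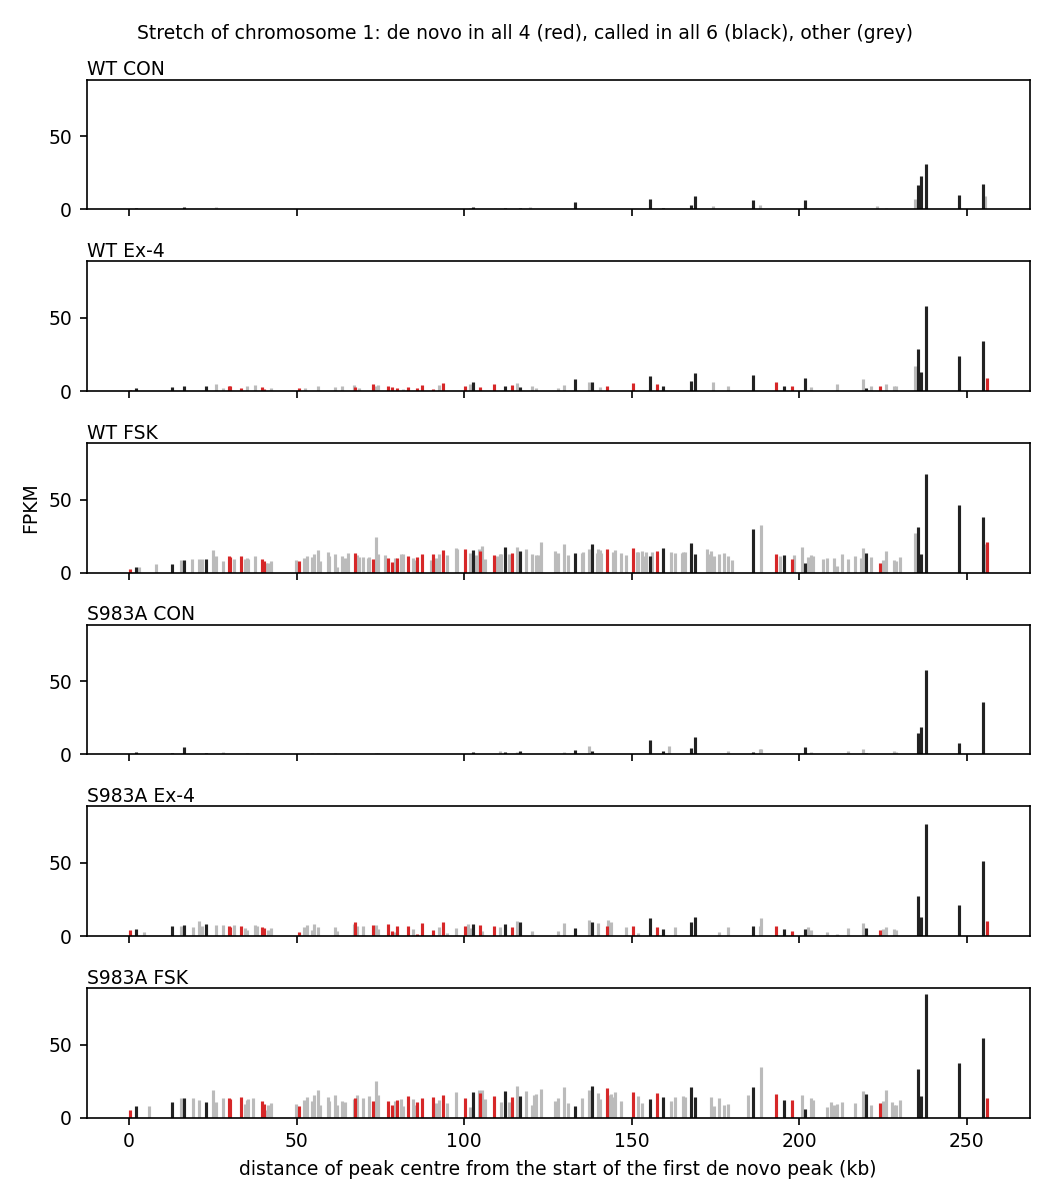
FPKM of every merged peak in the 256 kb stretch of chromosome 1, by distance in kb from the start of its first de novo peak, with 1 panel per library and 1 vertical line per peak with a value. De novo peaks are red, always-called peaks black and other peaks grey. Lines are sparse in both CON panels (33 and 45 peaks with a value), denser with Ex-4 (84 and 110) and densest with FSK (174 and 148).

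The next stretch, chr1:128931916-129125248, spanned 193 kb and held 14 de novo peaks among 117 merged peaks. Its de novo peaks had medians of 2.65 FPKM in WT Ex-4, 6.89 FPKM in WT FSK, 2.69 FPKM in Med14 S983A Ex-4 and 6.18 FPKM in Med14 S983A FSK. FSK was at least 2-fold above Ex-4 at 11 of the 14 in WT and at 9 in Med14 S983A. Its 8 always-called peaks had medians of 6.87, 8.52 and 12.1 FPKM in WT CON, Ex-4 and FSK and of 7.02, 8.47 and 13.5 FPKM in Med14 S983A.

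A shorter stretch, chr6:25567840-25608976, included the longest de novo peak. Its 5 de novo peaks lay among 17 merged peaks, of which none had a value in either CON library. In WT 7 of the 17 had a value with Ex-4 and 15 with FSK, and in Med14 S983A 5 did with Ex-4 and 16 with FSK. The fourth by number of members, chr4:86444971-86530848, held 4 de novo peaks, with 0.795 to 1.91 FPKM in WT Ex-4, 1.80 to 7.44 FPKM in WT FSK, 0.779 to 2.75 FPKM in Med14 S983A Ex-4 and 1.93 to 5.98 FPKM in Med14 S983A FSK. FSK exceeded Ex-4 at 4 of these in WT and at 3 in Med14 S983A. In 8 of the 10 stretches of 3, FSK exceeded Ex-4 at all 3 de novo peaks in both genotypes. The exceptions were chr19:37143361-37215239, where it did so at 1 of 3 in WT and 2 of 3 in Med14 S983A, and chr7:100146702-100179209, where it did so at 3 and 2.

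The surroundings of the de novo peaks were examined through the nearest always-called peak, whose values the choice of members did not use. Within 10 kb of a de novo peak there were 913 such neighbours. In WT, 2.52% of them were at least 2-fold over CON with Ex-4, against 0.448% of all 86576 always-called peaks, and 10.4% with FSK, against 5.94%. In Med14 S983A the shares were 2.19% with Ex-4, against 0.635%, and 8.65% with FSK, against 4.56%. The neighbours of peaks called in the FSK libraries alone stood lower, at 0.807% with Ex-4 against 7.99% with FSK in WT cells, and at 1.03% with Ex-4 against 6.60% with FSK in Med14 S983A. The excess near de novo peaks was not confined to 10 kb. A further 364 neighbours lay 10 to 50 kb away. With FSK their share came to 11.8% for WT cells and 9.34% for the mutant. With Ex-4 it came to 2.75% and 2.20%. Each of the 4 shares was lower for the 68 neighbours beyond 50 kb.

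Part of the Ex-4 shares within 10 kb came from the stretches. Without de novo peaks in stretches of 3 or more, 876 neighbours were left, and the shares were 1.60% with Ex-4 against 8.79% with FSK in WT cells, and 1.03% with Ex-4 against 6.96% with FSK in Med14 S983A. The Ex-4 shares rested on few peaks, 23 in WT and 20 in Med14 S983A with the stretches and 14 and 9 without them. The typical neighbour among the 913 stayed near its CON value, with median log2 ratios to CON between -0.05 and 0.004 over the 4 stimulated libraries. Medians over all 86576 always-called peaks were lower in each library. With FSK these were -0.135 for WT cells and -0.124 for the mutant, where the neighbours had -0.051 and -0.034. With Ex-4 these were -0.017 and -0.020, where the neighbours had 0.003 and 0.004. The typical neighbour thus stood slightly above always-called peaks at large. The 2 ratios of a genotype share its CON library.

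**Figure D5:**
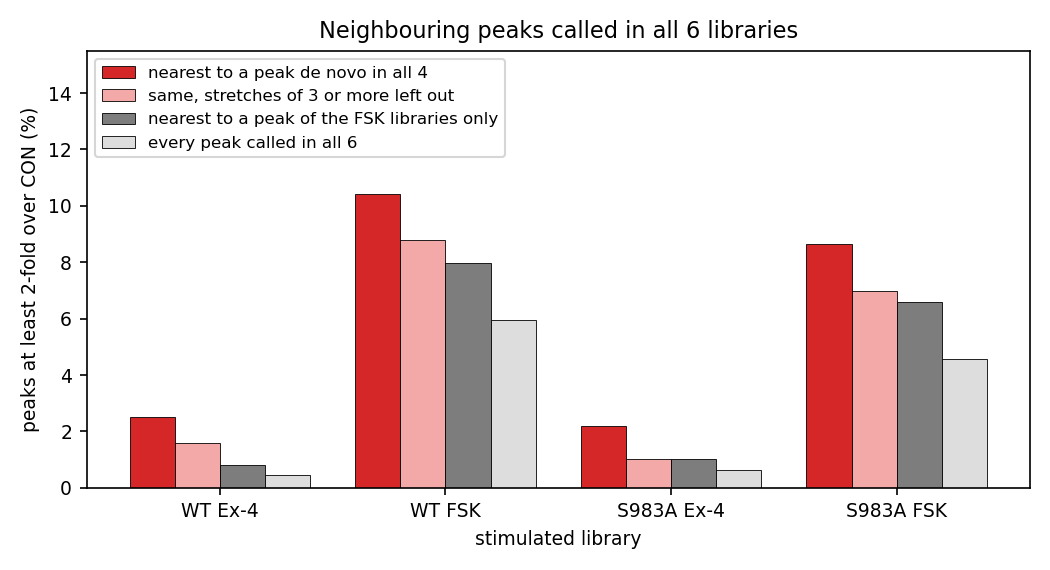
Share of always-called peaks at least 2-fold over the CON library of the same genotype, in percent, for each stimulated library. Bars from left to right are neighbours within 10 kb of de novo peaks, the same without stretches, neighbours within 10 kb of peaks called in the FSK libraries alone, and all always-called peaks. With WT Ex-4 they stand at 2.52, 1.60, 0.807 and 0.448%.

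De novo peaks were found on every chromosome with merged peaks, X included, at shares of 0.450% of the merged peaks on chromosome 9 to 0.758% on chromosome 4. Chromosome 1 held 193, or 0.733% of its merged peaks, 42 of them in the stretches. On every chromosome the median log2 ratio of FSK to Ex-4 was above 0 in both genotypes, and the median log2 ratio of Med14 S983A to WT with Ex-4 was above 0, also with centred libraries and with quantile normalization. With FSK the genotype median was below 0 on all 21 chromosomes as deposited and on 15 of 21 under either scaling.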

How the data were processed

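Values rest on the rn6 build. Per the labels and the methods, the tools behind them were bwa mem, macs2, samtools and Trim Galore, and nuclear reads were kept once each where their mapping was good. The authors then joined peaks across libraries and deposited FPKM over these merged peaks, with the libraries in which each was called. The sources used here do not state whether fragments were Tn5-shifted for these FPKM.

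From the deposited FPKM, whole reads were recovered by the step between values times peak length. All low values checked lay within 0.15 of a whole step. FPKM × length summed to 98.6 to 99.0% of the scale in each library, so the scale is set by the reads falling in peaks called for that library. The 3 mitochondrial peaks were left out. Differences are log2(FPKM + 0.5), with a 2-fold size rule. The background is the 93109 peaks called in all 4 stimulated libraries. Scripts were tested on simulated data and ran under matplotlib 3.10.9, scipy 1.17.1, pandas 2.3.3, numpy 2.4.6 and Python 3.11.15.

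Members and lists were chosen with earlier results of these data known. Regions were named by rank, as the 10 highest means over the 4 stimulated libraries, the 5 largest FSK excesses shared by the genotypes, the 5 largest genotype differences shared by both stimuli in each direction, and the 3 lowest means. Regions named outside this rule are said to be so, and the 5 largest excesses and differences were taken where the 4 libraries averaged 1 FPKM or more. Motifs, sequences and genes near the peaks were not analysed here, because no rn6 genome or annotation was used. Counting error is appreciable at single weak peaks, most of all with Ex-4, and variation between libraries, unknown with 1 library per condition, limits every comparison.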

Additional observations from a re-analysis of the deposited data

Results flagged for a closer look

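The genotype medians had opposite signs under the stimuli. The median log2 ratio of Med14 S983A to WT over the de novo peaks was -0.26 with FSK and 0.17 with Ex-4. This was picked out because the direction differed between the stimuli. Peaks called in all 4 stimulated libraries and in a single CON library also had a lower median with FSK than with Ex-4. There both medians shared a sign, at -0.80 and -0.53 with a call in WT CON and 0.33 and 0.57 with a call in Med14 S983A CON. Those peaks were chosen by a call in the CON library of a single genotype, so that sign is favoured by the choice. Over the background the medians were 0.02 with FSK and 0.05 with Ex-4. With 1 library per condition the difference was not tested, and depth, line and library cannot be told apart from genotype.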

How the results depend on the processing

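No paired analysis was possible because libraries of a condition were not replicated. The signs of the 4 medians and of the WT minus mutant difference held under every alternative run, and taking members by values in place of call lists gave 1388 in place of 1383. The median log2 FSK over Ex-4 in WT was 1.33 with a pseudocount of 0.1, 1.02 with a pseudocount of 1 and 1.24 where the mean over 6 libraries reached 1 FPKM, and the number past 4-fold was 267. In Med14 S983A it was 0.78 and 0.57 with these pseudocounts, 0.77 with centred libraries and 0.78 with quantile normalization, with 759 peaks past 1.5-fold and 65 past 4-fold. For Med14 S983A over WT with FSK the median was -0.084 centred and -0.067 with quantile normalization, with 75 and 66 peaks at least 2-fold lower, 375 past 1.5-fold and 4 past 4-fold. With Ex-4 the median was 0.20 and 0.14 with the pseudocounts, 0.27 centred and 0.23 with quantile normalization. The peaks at least 2-fold higher numbered 138 and 29 with the pseudocounts and 114 centred, with 278 past 1.5-fold and 0 past 4-fold. Background shares are not given here past 1.5-fold, past 4-fold or at the other pseudocounts. The counts at those settings in this paragraph are therefore not read as results about the de novo peaks. The WT minus mutant difference of the FSK ratio, added after the data were seen together with the alternative without stretches, was 0.51 and 0.40 with the pseudocounts, 0.39 centred and 0.32 with quantile normalization. Centring moved the background medians by 0.05 to 0.17 in the same direction. The cause of these movements was not tested. The motif window was not run.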
